A study of Homo sapiens with 41 samples.

Results

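The data described here are RNA-seq counts from 4 libraries of HMLE cells treated with thapsigargin (Tg), 2 carrying a short hairpin RNA against ATF4 (shATF4) and 2 carrying a control hairpin (shCtrl). HMLE is a line of immortalised human mammary epithelial cells, and thapsigargin blocks the calcium pump of the endoplasmic reticulum (ER), which empties the ER of calcium and disturbs protein folding there. The 4 libraries were chosen by their titles from 41 samples in the series, of which 32 are RNA-seq and 16 are RNA-seq of HMLE. HMLE carrying either hairpin was also sequenced in DMSO, under amino acid deprivation (labelled AA_Dep) and with Twist overexpression (Twist_OE), in 2 samples each. All 8 groups shared one estimate of the spread, and the DMSO and AA_Dep groups were used for comparison with Tg. Both AA_Dep samples of shATF4 hold identical values and were counted as 1 library. The labels name 1 hairpin against ATF4 and no dose or duration of treatment, so effects of that hairpin other than the loss of ATF4 cannot be told apart from it. They do not say whether the 2 libraries of a group came from separate cultures, so the p-values measure only the spread between these libraries, which may be technical.

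As background, ER stress activates a set of sensors in the ER membrane. One of them, the kinase PERK (gene EIF2AK3), phosphorylates the translation factor eIF2alpha, which lowers protein synthesis in general and raises translation of the ATF4 messenger RNA. This is the integrated stress response (ISR), and other eIF2alpha kinases start it upon lack of amino acids. ATF4 is a bZIP transcription factor that pairs with C/EBP factors or with CHOP (gene DDIT3) and binds amino acid response elements near genes of amino acid synthesis, amino acid uptake and tRNA charging. The other sensors, IRE1 (gene ERN1) and ATF6, act through XBP1 and through the cleaved ATF6 protein, which bind ER stress elements near ER chaperone genes.

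To set the expression values beside the DNA, the letters of both elements were searched on both strands of RefSeq promoter windows (GRCh38.p14, 250 bases before to 50 after each start). The amino acid response element was searched as TGATGNAA and the ER stress element as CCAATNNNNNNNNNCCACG, and neither contains the other. The stretches printed here, on the gene's strand with the element in capitals, are from genes whose levels are given below. The first set holds the amino acid response element, in ISR targets, tRNA synthetases and amino acid transporters that were lower in shATF4.
CHAC1: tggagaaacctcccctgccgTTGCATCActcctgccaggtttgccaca
ASNS: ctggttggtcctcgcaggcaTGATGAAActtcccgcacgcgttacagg
JDP2: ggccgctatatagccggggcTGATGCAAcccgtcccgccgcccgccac
CEBPG: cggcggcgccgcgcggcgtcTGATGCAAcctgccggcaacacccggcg
CARS1: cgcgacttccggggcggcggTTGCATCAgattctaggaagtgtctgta
MARS1: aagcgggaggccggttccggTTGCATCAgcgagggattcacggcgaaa
GARS1: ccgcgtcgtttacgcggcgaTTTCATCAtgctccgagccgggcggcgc
SLC1A4: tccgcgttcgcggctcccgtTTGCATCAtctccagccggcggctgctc
SLC7A1: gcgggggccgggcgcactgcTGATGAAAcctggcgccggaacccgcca
These stretches lie at chr15:40953242-40953289, plus strand (CHAC1), chr7:97872449-97872496, minus strand (ASNS), chr14:75427986-75428033, plus strand (JDP2), chr19:33374051-33374098, plus strand (CEBPG), chr11:3057398-3057445, minus strand (CARS1), chr12:57488044-57488091, plus strand (MARS1), chr7:30594825-30594872, plus strand (GARS1), chr2:64989372-64989419, plus strand (SLC1A4) and chr13:29595654-29595701, minus strand (SLC7A1). The element read TGATGCAA or TGATGAAA on one strand or the other in each of these 9 genes. The second set holds the ER stress element, in ER chaperone genes.
HSPA5: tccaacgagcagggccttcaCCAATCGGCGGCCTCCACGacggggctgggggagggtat
HSP90B1: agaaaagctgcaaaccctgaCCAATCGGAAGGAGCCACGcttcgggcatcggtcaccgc
CRELD2: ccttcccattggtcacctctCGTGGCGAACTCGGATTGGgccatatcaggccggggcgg
CANX: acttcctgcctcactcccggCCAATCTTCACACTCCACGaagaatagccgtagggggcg
They lie at chr9:125241371-125241429, minus strand (HSPA5), chr12:103930196-103930254, plus strand (HSP90B1), chr22:49918534-49918592, plus strand (CRELD2) and chr5:179698758-179698816, plus strand (CANX). A match is a description of the letters and no evidence of binding, and a gene without one may hold a site outside the window.

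ATF4 itself was lower in both shATF4 libraries. In Tg its level was 716 and 667 CPM in shCtrl and 104 and 106 CPM in shATF4, in CPM (counts scaled to the library total, after TMM normalisation), and the groups did not overlap (log2 change -2.72 ± 0.052 (SE), adjusted p = 3.3e-17, edgeR's quasi-likelihood test with Benjamini-Hochberg adjustment over all genes tested, as for every adjusted p here). In DMSO the levels were 436 and 457 CPM in shCtrl and 127 and 121 CPM in shATF4 (log2 change -1.85 ± 0.050). Under AA_Dep, the shCtrl libraries held 878 and 891 CPM and the single shATF4 library held 129 CPM. The remaining ATF4 level in shATF4 was thus lower in Tg than in DMSO, while that in shCtrl was higher, and the fall was larger in Tg (difference of the changes -0.87 ± 0.070, adjusted p = 3.6e-07).

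The Tg libraries held 20552478 to 22847576 counts. The 9 epithelial markers of HMLE were present in all 4, at a summed 12441 and 12158 CPM before TMM scaling in shCtrl and 11644 and 11551 in shATF4. Leukocyte markers summed to at most 3.08 CPM, with PTPRC, CD3E and LYZ at 0, and endothelial markers to at most 4.04 CPM. Stellate cell markers, listed because the series also holds a stellate line, summed to between 143 and 150.4 CPM in all 4 libraries, with 3 of 15 (HAND2, GATA4 and DLK1) at 0. Most of each sum was NGFR (87.67 and 86.65 CPM in shCtrl, 107.3 and 99.05 in shATF4). LRAT came next (36.56 and 34.59 CPM in shCtrl, 15.08 and 15.49 in shATF4). The steady sum thus covers changes of single markers in opposite directions. In bulk samples, fewer cells of a type and less RNA per cell cannot be told apart. One library stood apart in the genes encoded by mitochondrial DNA, which summed to 3935 and 2861 CPM in shCtrl and to 5204 and 5751 CPM in shATF4, so that shCtrl replicate 2 was the lowest.

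Between shATF4 and shCtrl, 4353 of 17940 genes tested differed in Tg at an adjusted p under 0.05, which is 24.3% of them. Of these, 2212 (12.3%) were higher and 2141 (11.9%) lower in shATF4. Few changes were large, as 314 genes (1.75%) fell and 204 (1.14%) rose at least 2-fold, 2.89% of genes in all. The median log2 change over all genes tested was 0.0055. These percentages are the background for the counts of each gene list. Of the 17940 genes, called or not, 5399 had both shATF4 libraries above both shCtrl libraries, and 5017 had both below. Among called genes this held for 2209 of 2212 higher and 2140 of 2141 lower ones. Libraries that do not overlap thus add little to a call.

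The promoter windows describe the genes that fell. Of genes tested that had a window, 353 of 12148 (2.91%) held the amino acid response element, against 3.62% of all windows. Among genes that fell at least 2-fold the share was 16.4% (34 of 207), and among genes that fell less it was 5.25% (77 of 1467). Among genes that rose at least 2-fold it was 1.74% (2 of 115), and among those that rose less 2.33% (37 of 1591). The share was thus highest in the strongest fallers and lowest in the strongest risers. This is a description with no test. The ER stress element was in 27 of 35116 windows (0.0769%) and in 16 of 12148 genes tested that had a window (0.132%). It was in 0 of 207 genes that fell at least 2-fold, which says little for an element this rare.

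**Figure D1:**
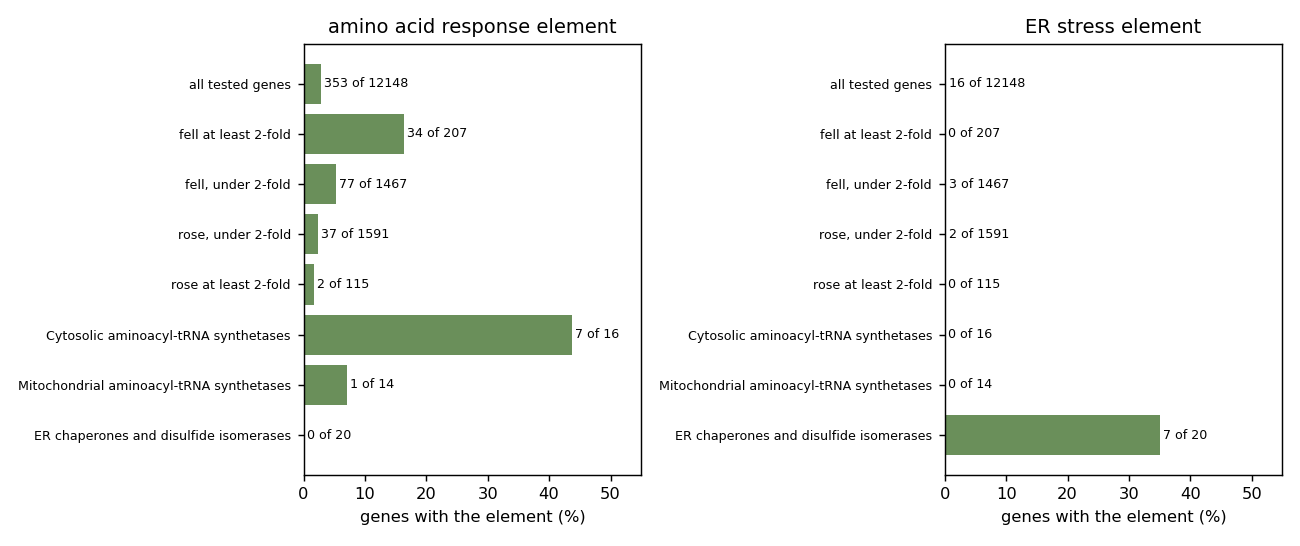
Percentage of genes whose promoter window holds the amino acid response element (left) or the ER stress element (right), for all genes tested, for genes grouped by their change in shATF4 against shCtrl in thapsigargin, and for 3 gene lists. Bars start at 0 and carry the counts, with 34 of 207 strong fallers and 7 of 16 cytosolic tRNA synthetases holding the first element and 7 of 20 ER chaperones the second.

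Of 22 ISR targets of ATF4 and CHOP, 18 fell and 1 rose in shATF4 (median log2 change -2.15), where 11.9% of all genes fell. Their median log2 difference from DMSO to Tg was 2.28 in shCtrl and 0.95 in shATF4. The Tg responses share the Tg libraries with the knockdown comparison and are given only as values. The plot of levels in each library shows ATF4, 9 ISR and related stress genes and 2 chaperones.

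**Figure D2:**
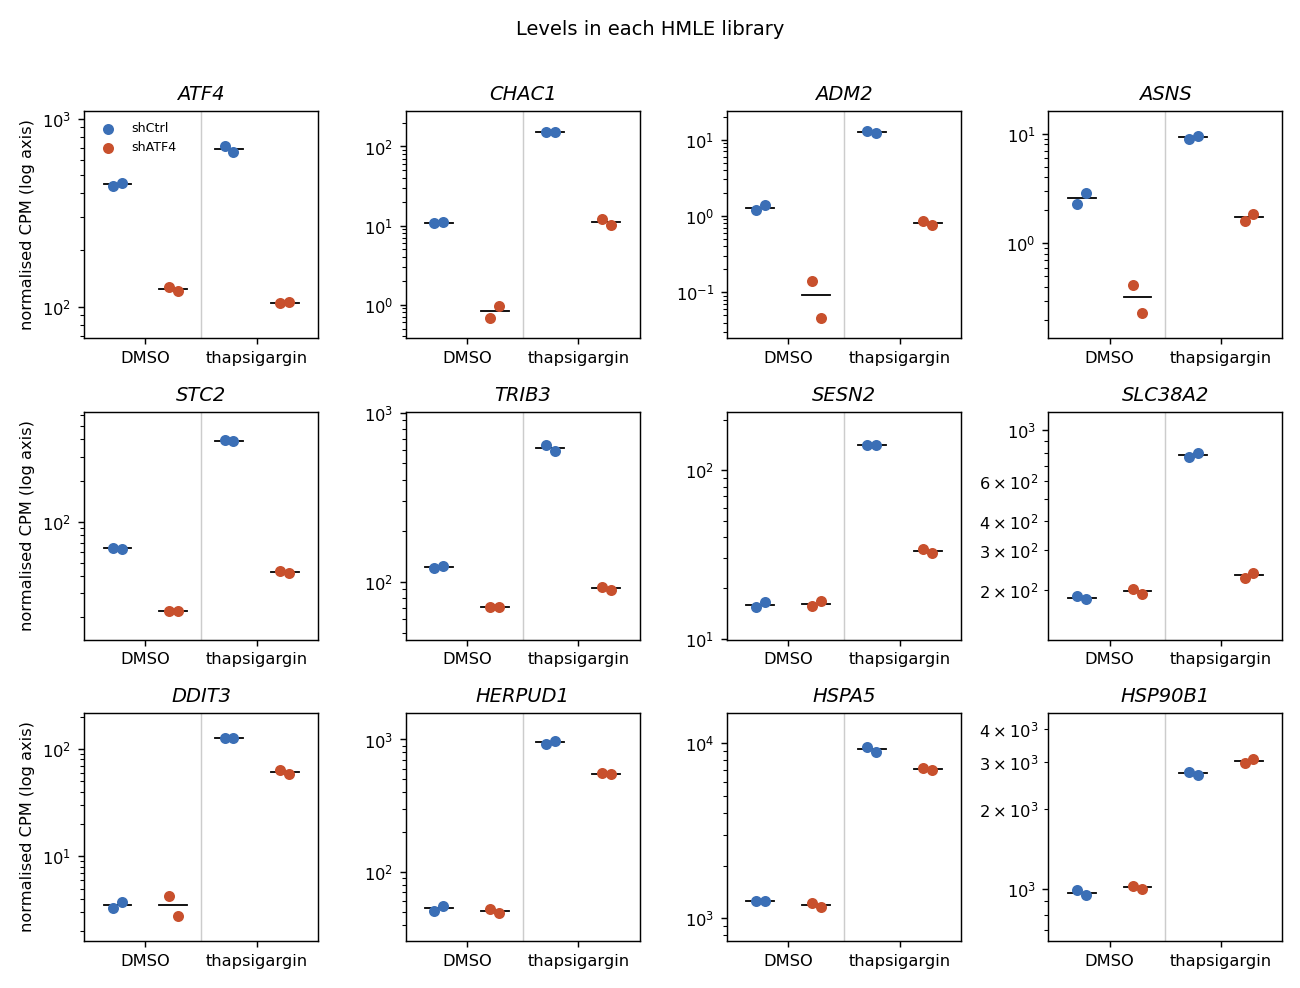
Normalised CPM (log axis) of 12 genes in each HMLE library in DMSO and in thapsigargin, blue for shCtrl and orange for shATF4. Points are libraries and lines are group means. CHAC1, ADM2 and ASNS are separated by hairpin in both conditions, whereas SESN2, DDIT3 and HERPUD1 overlap in DMSO and are apart in thapsigargin.

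One set of ISR targets was already lower in shATF4 in DMSO, and its difference from DMSO to Tg was not called different between the hairpins. CHAC1, which degrades glutathione, was at 154 and 152 CPM in shCtrl and 12.01 and 10.2 CPM in shATF4 in Tg and at 10.7 and 11.02 CPM in shCtrl and 0.691 and 0.965 CPM in shATF4 in DMSO. It was lower in shATF4 in both conditions (log2 change -3.79 ± 0.085, adjusted p = 2e-16 in Tg, and -3.703 ± 0.17, adjusted p = 5.5e-11 in DMSO), and its difference from DMSO to Tg was 3.82 in shCtrl and 3.73 in shATF4. The difference between the changes was -0.087 ± 0.28, which did not pass the test (adjusted p = 0.94). ADM2, a secreted peptide hormone of the calcitonin family, was also low in both (12.9 and 12.1 CPM in shCtrl and 0.854 and 0.763 CPM in shATF4 in Tg, log2 change -3.94 ± 0.22 in Tg and -3.72 ± 0.49 in DMSO). ASNS, asparagine synthetase, was at 9.03 and 9.61 CPM in shCtrl and 1.61 and 1.84 CPM in shATF4 in Tg (log2 change -2.43 ± 0.21) and changed by -2.97 ± 0.35 in DMSO. The changes in Tg and DMSO differed by -0.23 ± 1.12 for ADM2 and 0.55 ± 0.45 for ASNS, with wide errors that leave room for sizeable differences. CHAC1, ADM2 and ASNS were thus lower in shATF4 in both conditions, with no overlap of libraries.

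A second set changed little or less in DMSO and fell further in Tg. SESN2, an inhibitor of the growth kinase complex mTORC1, was at 15.4 and 16.4 CPM in shCtrl and 15.6 and 16.7 CPM in shATF4 in DMSO and at 142 and 142 CPM in shCtrl and 34.2 and 32.1 CPM in shATF4 in Tg. Its log2 change in shATF4 was 0.022 ± 0.097 in DMSO and -2.097 ± 0.077 in Tg, and the difference passed the test (-2.12 ± 0.12, adjusted p = 4.5e-09). TRIB3, a pseudokinase that binds ATF4, was at 645 and 590.2 CPM in shCtrl and 92.5 and 89.8 CPM in shATF4 in Tg (log2 change -2.76 ± 0.057 (SE), adjusted p = 7.7e-17) and changed by -0.78 ± 0.057 in DMSO, and its difference from DMSO to Tg was 2.34 in shCtrl and 0.36 in shATF4. SLC38A2, a neutral amino acid transporter, was at 768 and 799.7 CPM in shCtrl and 225 and 238 CPM in shATF4 in Tg (log2 change -1.76 ± 0.046) with a change of 0.093 ± 0.045 in DMSO. For SESN2, TRIB3 and SLC38A2 the 2 hairpins were thus further apart in Tg than in DMSO.

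The stress hormone gene GDF15 (117 and 115 CPM in shCtrl and 47.7 and 38.4 CPM in shATF4 in Tg, log2 change -1.43 ± 0.097) and the secreted glycoprotein gene STC2 (393 and 391 CPM in shCtrl and 43.97 and 42.5 CPM in shATF4, -3.18 ± 0.056) had more negative changes in Tg than in DMSO too, by -1.71 and -1.66. The estimated change in DMSO was thus positive for GDF15 and already negative for STC2. DDIT4, another mTORC1 inhibitor, was at 825 and 897 CPM in shCtrl and 312 and 301 CPM in shATF4 (log2 change -1.49 ± 0.063, difference from DMSO -1.21). DDIT3, which encodes CHOP, fell about 2-fold in Tg, from 128 and 126 CPM to 63.97 and 59.1 CPM (log2 change -1.04 ± 0.084 (SE), adjusted p = 2.7e-08), and did not pass the test in DMSO (log2 change -0.0025 ± 0.19). The difference between the changes was -1.04 ± 0.21, and it was not called without shATF4 DMSO replicate 1 (-0.72). Its log2 difference from DMSO to Tg was 4.13 in shATF4 and 5.17 in shCtrl, so the gene for CHOP was far above its DMSO level in Tg with either hairpin.

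Most other ISR targets fell as well. JDP2, a bZIP repressor, was at 14.6 and 15.01 CPM in shCtrl and 1.56 and 1.39 CPM in shATF4 (log2 change -3.33 ± 0.15), CTH, the cystathionine lyase of cysteine synthesis, at 128 and 135 CPM in shCtrl and 16.9 and 19.02 CPM in shATF4 (-2.87 ± 0.072), and NUPR1, a small stress-induced chromatin protein, at 36.3 and 37.8 CPM in shCtrl and 5.53 and 5.16 CPM in shATF4 (-2.795 ± 0.11). The lipoprotein receptor gene VLDLR was low but separate, at 4.66 and 4.11 CPM in shCtrl and 0.452 and 0.404 CPM in shATF4 (-3.34 ± 0.32, adjusted p = 2.4e-07). FGF21, a stress hormone, had 27 counts over both shCtrl libraries in Tg and 0 in shATF4, so it was at least 9-fold lower (floor of 3 counts over the group). Its call was lost without shCtrl Tg replicate 2, and with the bound in place of its fitted value the list's median stayed at -2.15. Of the remaining members, the eIF2alpha phosphatase subunit PPP1R15A fell slightly (log2 change -0.38 ± 0.058). ATF3, an ISR transcription factor that was named after its values were seen, was the only member that rose, at 47.3 and 46.1 CPM in shCtrl and 57.4 and 54.5 CPM in shATF4 (0.26 ± 0.077, adjusted p = 0.018). That call was lost without shATF4 Tg replicate 1 (0.22) or without shCtrl Tg replicate 2 (0.24). Its window holds the amino acid response element. ATF5 (-0.15 ± 0.102, adjusted p = 0.34) and ERO1A (0.12 ± 0.055, adjusted p = 0.14) did not pass the test.

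**Figure D3:**
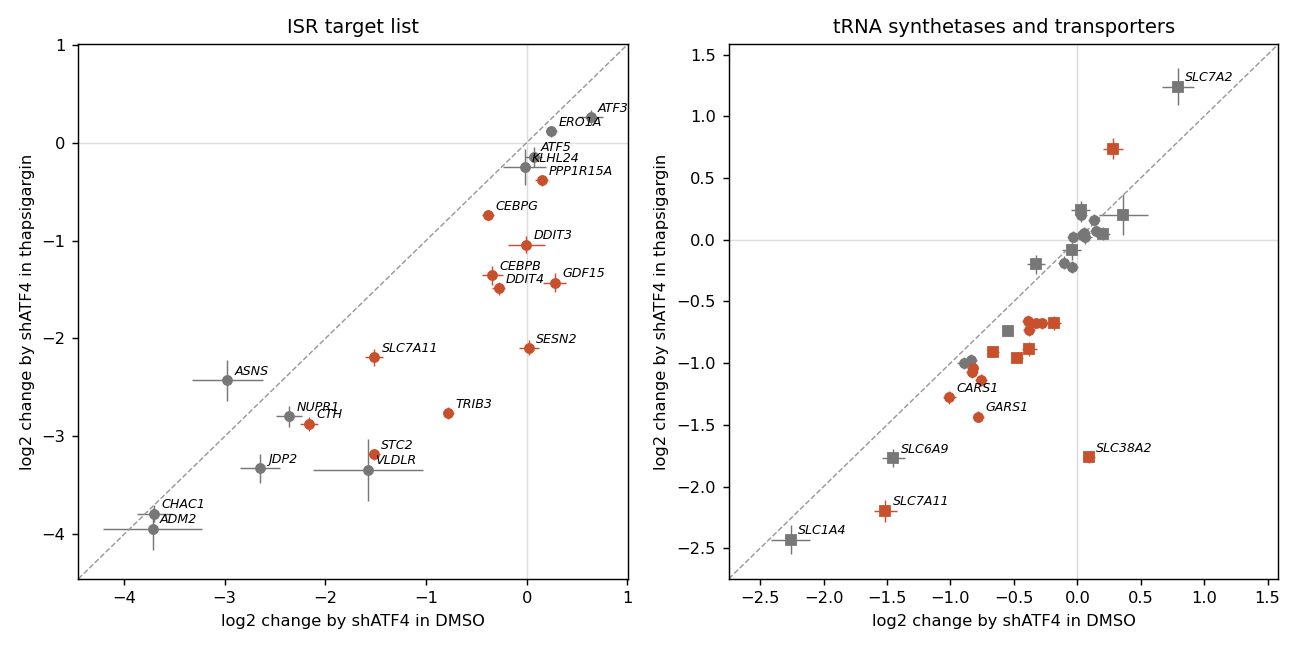
Log2 change by shATF4 in DMSO (x axis) and in thapsigargin (y axis), with bars of 1 SE, for the ISR list without FGF21 (left) and for tRNA synthetases (circles) and amino acid transporters (squares) above 1 CPM (right). Orange points are genes whose changes differ between the conditions at an adjusted p under 0.05, such as SESN2, TRIB3 and SLC38A2 below the dashed line of equality, and grey points are the others, such as CHAC1 and ADM2 near it.

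Among 17 possible bZIP partners of ATF4 that were tested, 7 fell and 4 rose (median -0.21). CEBPB, a C/EBP factor that pairs with ATF4, was at 176 and 211 CPM in shCtrl and 71.4 and 79.8 CPM in shATF4 in Tg (log2 change -1.36 ± 0.099 (SE), adjusted p = 7.3e-09). NFIL3, a bZIP repressor, fell from 50.8 and 47.4 CPM to 19.1 and 17.99 CPM (-1.405 ± 0.081, adjusted p = 2.4e-10). CEBPG, another C/EBP partner, fell by less (log2 change -0.74 ± 0.053), and NFE2L2, which encodes NRF2, the activator of antioxidant genes, changed by -0.61 ± 0.050. In all 4 the change was more negative in Tg than in DMSO, by -1.01 (CEBPB), -1.13 (NFIL3), -0.36 (CEBPG) and -0.67 (NFE2L2). The difference for CEBPG was not called without shATF4 Tg replicate 2 (-0.31). The AP-1 gene FOS went the other way, from 5.05 and 4.76 CPM in shCtrl to 11.3 and 9.42 CPM in shATF4 (1.07 ± 0.21, adjusted p = 0.00076).

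Of 11 ER stress sensors, their processing enzymes and related bZIP factors, 7 fell and 0 rose (median -0.42). EIF2AK3, encoding PERK, was at 63.5 and 71.7 CPM in shCtrl and 35.3 and 33.8 CPM in shATF4 in Tg (log2 change -0.97 ± 0.080 (SE), adjusted p = 3.7e-08). ERN1, encoding IRE1, fell from 51.2 and 41.5 CPM to 24.6 and 24.6 CPM (-0.91 ± 0.092, adjusted p = 5.3e-07) and did not pass the test in DMSO (-0.062 ± 0.101). XBP1, whose messenger RNA IRE1 splices, fell by 0.56 on the log2 scale (353 and 378 CPM in shCtrl and 248 and 249 CPM in shATF4), and gene counts do not show its splicing. ATF6B, a relative of ATF6, fell in both conditions (-0.94 ± 0.075 in Tg and -0.92 ± 0.075 in DMSO). The site-1 protease MBTPS1, which cleaves ATF6, did not pass the test (0.054 ± 0.048). Of 9 eIF2alpha kinases and phosphatase subunits, 2 fell (EIF2AK3 and PPP1R15A) and 1 rose slightly (PPP1CC, 0.17 ± 0.048), while the kinase EIF2AK1 (0.092 ± 0.043) and the phosphatase subunit PPP1CB (0.083 ± 0.050) did not pass. PPP1CC lost its call without shATF4 Tg replicate 2 (0.16) or without shCtrl Tg replicate 1 (0.11).

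Several enzymes of amino acid synthesis fell. Of 14 serine, glycine and one-carbon enzymes 7 fell and 1 rose (median -0.498). The median was -0.86 without shATF4 Tg replicate 1 and -0.31 without shCtrl Tg replicate 1, and 0 rose without shCtrl Tg replicate 2. All 3 enzymes of serine synthesis fell: PHGDH, the first, was at 349 and 342 CPM in shCtrl and 82.1 and 83.3 CPM in shATF4 (log2 change -2.06 ± 0.046 (SE), adjusted p = 2e-16), PSAT1 at 719 and 758 CPM in shCtrl and 153 and 147 CPM in shATF4 (-2.298 ± 0.045), and PSPH, the last, at 89.5 and 94.1 CPM in shCtrl and 29.3 and 30.7 CPM in shATF4 (-1.61 ± 0.061). PSAT1 and PSPH fell more in Tg than in DMSO (differences -0.68 and -0.87), and PHGDH did so slightly (-0.29, not called without shATF4 DMSO replicate 2 at -0.27).

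Among mitochondrial one-carbon enzymes, 3 that fell are given here. ALDH1L2, the mitochondrial formyltetrahydrofolate dehydrogenase, was at 174 and 157 CPM in shCtrl and 23.97 and 26.4 CPM in shATF4 (log2 change -2.71 ± 0.079 in Tg and -2.55 ± 0.088 in DMSO). MTHFD2 fell from 688 and 703 CPM to 269 and 273 CPM (-1.36 ± 0.048) and SHMT2 from 691 and 689 CPM to 344 and 335 CPM (-1.02 ± 0.047). The cytosolic counterparts SHMT1 (0.12 ± 0.058, adjusted p = 0.17) and MTHFD1 (0.13 ± 0.060, adjusted p = 0.15) did not pass the test. In SHMT1 the libraries read 63.04 and 64.8 CPM in shCtrl and 67.5 and 70.96 CPM in shATF4, so the libraries lay close together. MTHFD2 and SHMT2 were named after their values were seen.

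Of 14 enzymes of asparagine, proline, glutamine, alanine and aspartate metabolism, 6 fell and 3 rose slightly (median -0.12). Without shATF4 Tg replicate 1 the risers numbered 1 and the median was -0.066. Besides ASNS, the proline enzyme PYCR1 fell from 39.4 and 40.5 CPM to 10.8 and 9.24 CPM (-1.998 ± 0.11), the alanine transaminase GPT2 from 282 and 292 CPM to 95.98 and 96.7 CPM (-1.58 ± 0.048), and the argininosuccinate synthase ASS1 from 240.1 and 234 CPM to 88.9 and 86.9 CPM (-1.43 ± 0.057). ASS1 also fell in DMSO (-1.37 ± 0.057), whereas GPT2 fell more in Tg (difference -0.69). Glutamine synthetase GLUL did not pass (0.11 ± 0.050, adjusted p = 0.13). Of 12 transsulfuration and glutathione enzymes 8 fell and 1 rose (median -0.68). They include CHAC1 and CTH, and GCLC, the catalytic subunit that starts glutathione synthesis, at 217 and 219.8 CPM in shCtrl and 141 and 141 CPM in shATF4 (-0.63 ± 0.048). CBS, the other transsulfuration enzyme, fell from 29.7 and 17.00 CPM to 3.12 and 2.02 CPM (-3.19 ± 0.41), but it has a near-identical copy, so its counts are uncertain.

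Most cytosolic enzymes of tRNA charging fell, and most mitochondrial ones were not called. Of 20 cytosolic aminoacyl-tRNA synthetases 13 fell and 2 rose slightly (median -0.67), and of 17 mitochondrial ones 2 fell and 3 rose (median 0.013). The few risers and mitochondrial fallers were unsteady: without shATF4 Tg replicate 1 the cytosolic risers numbered 0 and the mitochondrial fallers 1, without shATF4 Tg replicate 2 the risers numbered 1 in each list and the mitochondrial fallers 1, without shCtrl Tg replicate 1 the cytosolic risers numbered 1, and without shCtrl Tg replicate 2 the cytosolic risers and the mitochondrial fallers each numbered 1. GARS1, which charges glycine tRNA, was at 757 and 783 CPM in shCtrl and 284 and 285 CPM in shATF4 (log2 change -1.44 ± 0.044 (SE), adjusted p = 2.2e-14), and CARS1, for cysteine, at 195 and 193 CPM in shCtrl and 82.8 and 77.3 CPM in shATF4 (-1.28 ± 0.051). SARS1, for serine, fell from 491 and 461 CPM to 224 and 209 CPM (-1.14 ± 0.047) and MARS1, for methionine, from 507 and 485 CPM to 239 and 233 CPM (-1.07 ± 0.047). These 4 were about 2-fold lower or more, with no overlap of libraries.

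Cytosolic synthetases were not all lower. VARS1, for valine, was at 295 and 283 CPM in shCtrl and 295 and 293 CPM in shATF4 (0.024 ± 0.044, adjusted p = 0.76), and KARS1, for lysine, at 308 and 297 CPM in shCtrl and 319 and 303 CPM in shATF4 (0.041 ± 0.048, adjusted p = 0.6) (KARS1 serves both compartments). Neither passed the test. The windows of 7 of 16 cytosolic members held the amino acid response element (43.8%; AARS1, CARS1, GARS1, IARS1, MARS1, NARS1 and TARS1), and of 1 of 14 mitochondrial members (YARS2). All 7 fell, by between -0.66 (IARS1) and -1.44 (GARS1) on the log2 scale, whereas YARS2 did not pass the test (-0.086 ± 0.069).

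Of 18 amino acid transporters tested, 10 fell and 3 rose (median -0.81). The neutral amino acid carrier SLC1A4 was at 32.9 and 31.1 CPM in shCtrl and 5.58 and 6.24 CPM in shATF4 (log2 change -2.43 ± 0.12 (SE), adjusted p = 2.3e-11), the cystine importer SLC7A11 at 362 and 318 CPM in shCtrl and 75.7 and 72.7 CPM in shATF4 (-2.19 ± 0.089), and the glycine carrier SLC6A9 at 147 and 127 CPM in shCtrl and 41.5 and 38.8 CPM in shATF4 (-1.77 ± 0.072). SLC3A2, the heavy chain shared by several carriers, was at 1731 and 1765 CPM in shCtrl and 957 and 906 CPM in shATF4 (-0.91 ± 0.046), and its partner SLC7A5 at 3419.6 and 3176 CPM in shCtrl and 1951 and 2006 CPM in shATF4 (-0.74 ± 0.041). These were lower in both shATF4 libraries than in both shCtrl libraries. The cationic amino acid carrier SLC7A1 fell as well (-0.88 ± 0.057), whereas its relative SLC7A2, at low level, rose (3.79 and 4.11 CPM in shCtrl and 10.1 and 8.61 CPM in shATF4, 1.24 ± 0.15, adjusted p = 5.6e-06). Windows of 6 of 15 transporters held the element (40.00%), among them SLC1A4, SLC1A5, SLC3A2 and SLC7A1. These named holders all fell, and the changes of the remaining holders are not given here. The share was lower in other lists. The element was in 6 of 20 windows of ISR targets (CHAC1, ASNS, JDP2, CEBPG, FGF21 and ATF3, of which ATF3 rose). It was in 1 of 10 windows of serine, glycine and one-carbon enzymes. Most genes that fell at least 2-fold had no match in their window, as 34 of 207 held one. SLC7A5 and SLC7A1, SLC3A2 and SLC1A5 were named after their values were seen, as were AARS1, IARS1, NARS1 and TARS1.

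Of 18 translation factors 6 fell and 1 rose (median -0.073); 0 rose without shATF4 Tg replicate 1, shATF4 Tg replicate 2 or shCtrl Tg replicate 2. EIF4EBP1, an inhibitor of cap-dependent translation, fell from 273 and 241 CPM to 139.8 and 126 CPM (-0.95 ± 0.062), and its relative EIF4EBP2 from 77.6 and 74.5 CPM to 42.3 and 39.8 CPM (-0.89 ± 0.053). EIF2S2, the beta subunit of eIF2, changed by -0.67 ± 0.040, and the elongation factor EEF1A1 did not pass the test (-0.023 ± 0.033). Of 13 mTORC1 inhibitors and nutrient sensors, 3 fell and 1 rose (median -0.055): SESN2, DDIT4 and slightly TSC1 (-0.23 ± 0.081) fell, and AKT1S1 rose slightly (0.202 ± 0.051); 2 rose without shCtrl Tg replicate 1. TSC1 was not called without the filter on low counts, with DESeq2's Wald test or a fit of the compared groups only, or without shATF4 Tg replicate 1 (-0.26), shATF4 Tg replicate 2 (-0.20) or shCtrl Tg replicate 1 (-0.15).

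Of 22 ER chaperones and disulfide isomerases 1 fell and 3 rose (median -0.014), where 24.3% of all genes changed, and their median difference from DMSO to Tg was 1.03 in shCtrl and 1.05 in shATF4. HSPA5, encoding BiP, the main ER chaperone, was the member that fell, from 9570.2 and 8956 CPM to 7192 and 7054 CPM (log2 change -0.38 ± 0.048 (SE), adjusted p = 9.2e-06). HSP90B1, encoding GRP94, rose slightly, from 2765 and 2694 CPM to 2987 and 3089 CPM (0.15 ± 0.039, adjusted p = 0.0063); it was not called without shATF4 Tg replicate 2 (0.13), where the list's risers numbered 1, and its fallers numbered 2 without shCtrl Tg replicate 1. HYOU1, a BiP cofactor, was at 1142 and 1013 CPM in shCtrl and 1049.8 and 978 CPM in shATF4 and its libraries overlapped (-0.088 ± 0.061, adjusted p = 0.34). The disulfide isomerase P4HB rose by 0.38 ± 0.043 in Tg and by 0.57 ± 0.043 in DMSO.

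Windows of 7 of 20 of these chaperones held the ER stress element (35.00%; HSPA5, HSP90B1, CALR, CANX, PDIA6, ERO1B and CRELD2), and 0 of 20 held the amino acid response element. CRELD2, whose element is printed above, did not pass the test (-0.022 ± 0.055), and CANX rose slightly (0.14 ± 0.040), a call lost without shATF4 Tg replicate 1 (0.15), shATF4 Tg replicate 2 (0.13) or shCtrl Tg replicate 2 (0.14).

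**Figure D4:**
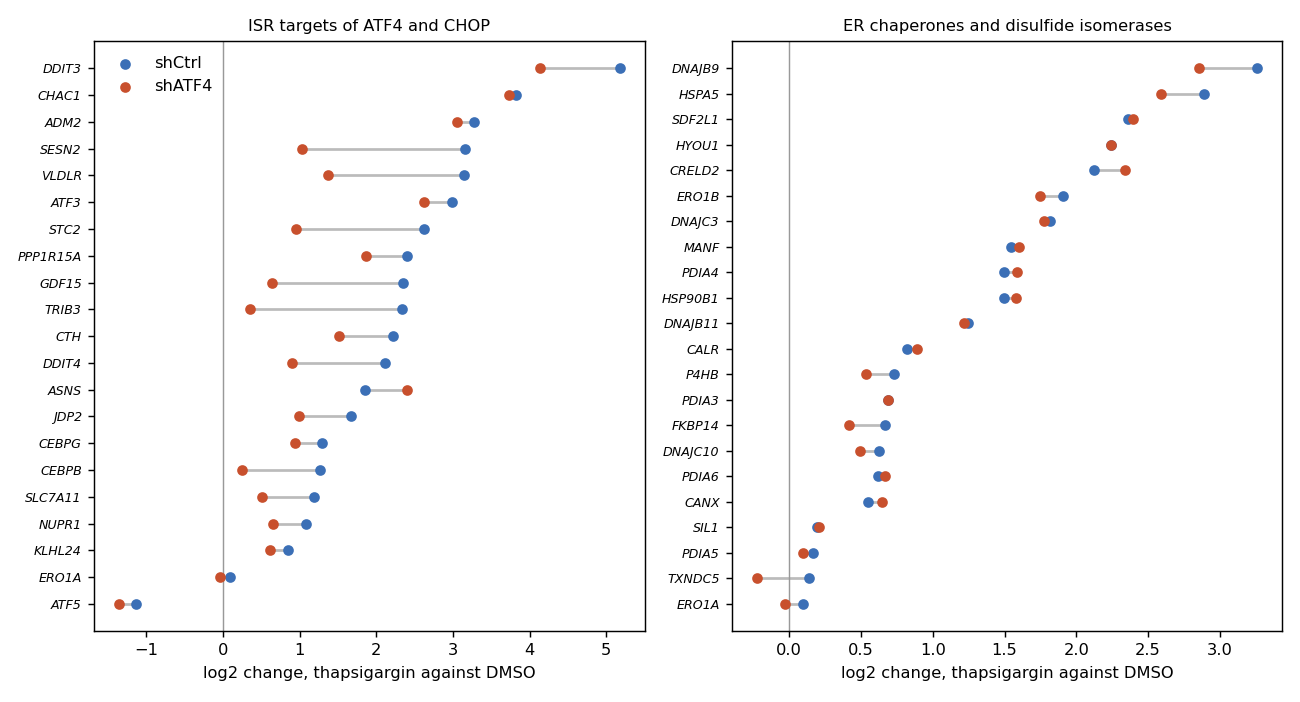
Log2 change from DMSO to thapsigargin in shCtrl (blue) and shATF4 (orange) for 21 ISR targets, FGF21 left out, and 22 ER chaperones and disulfide isomerases. Among ISR targets TRIB3, SESN2, VLDLR, GDF15 and STC2 have wide gaps and CHAC1 and ADM2 narrow ones. The gap of VLDLR was not called (difference -1.77 ± 0.74). Most chaperones, such as HYOU1 and SDF2L1, have nearly the same value with either hairpin. Both changes share libraries with the knockdown comparison.

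Of 15 members of ER-associated degradation, 8 fell and 2 rose (median -0.19), and 1 rose without shATF4 Tg replicate 2. HERPUD1, a membrane component of the degradation complex, fell from 930.1 and 972 CPM to 554 and 551 CPM in Tg (log2 change -0.78 ± 0.051 (SE), adjusted p = 1.5e-09) but did not pass the test in DMSO (-0.070 ± 0.060; difference -0.71 ± 0.079). The adaptor SEL1L fell by less (-0.33 ± 0.073). Of 26 members of ER translocation and COPII transport, 11 fell and 0 rose, by small steps (median -0.11), the largest in the COPII coat gene SEC24D (-0.43 ± 0.062). That count was 5 without shATF4 Tg replicate 2 and 6 without shCtrl Tg replicate 2. Of 16 genes of ER calcium handling 4 fell and 3 rose (median 0.025). The pump that thapsigargin blocks, ATP2A2, did not pass the test (1077 and 1080.0 CPM in shCtrl and 1167 and 1133 CPM in shATF4, 0.092 ± 0.044, adjusted p = 0.15), and STC1, a relative of STC2, rose from 5.34 and 4.57 CPM to 13.7 and 12.4 CPM (1.398 ± 0.11).

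**Figure D5:**
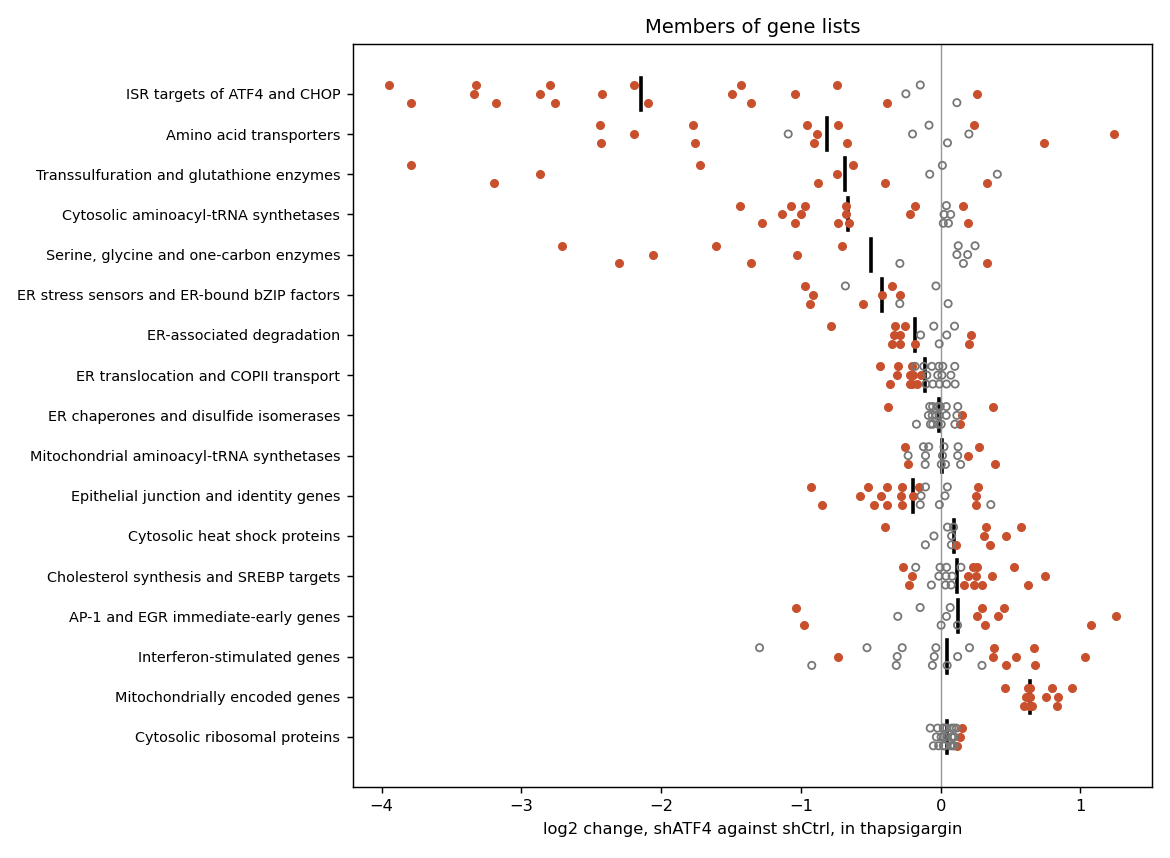
Log2 change by shATF4 in thapsigargin of each tested member of 17 gene lists, without members at 0 in a group. Filled orange points passed an adjusted p of 0.05 and open grey points did not. Black bars mark the median over all tested members, those not drawn included. ISR targets, transporters and cytosolic tRNA synthetases lie mostly to the left of 0, ER chaperones and ribosomal proteins near 0. All 13 mitochondrially encoded genes lie to the right.

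Of 18 NRF2 antioxidant targets 7 fell and 1 rose (median -0.17), led by SLC7A11 and GCLC; TXNRD1, thioredoxin reductase, fell from 342 and 338 CPM to 227 and 240.3 CPM (-0.54 ± 0.046). Several of these genes are also on the ATF4 lists. NRF2 targets that rose numbered 0 without shATF4 Tg replicate 1 and 3 without shCtrl Tg replicate 2. Of 18 autophagy genes 7 fell and 3 rose (median -0.035), and 4 fell without shATF4 Tg replicate 2 or shCtrl Tg replicate 2. MAP1LC3B, encoding the autophagosome protein LC3B, was at 127 and 132 CPM in shCtrl and 65.5 and 71.6 CPM in shATF4 in Tg (log2 change -0.92 ± 0.054 (SE), adjusted p = 3.8e-10) and did not pass the test in DMSO (0.032 ± 0.055). Of 13 mitochondrial chaperones and proteases 4 fell and 4 rose (median 0.042), with the protease LONP1 (-0.54 ± 0.053) and the chaperone HSPA9 (-0.37 ± 0.042) lower.

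Of 21 apoptosis regulators and death receptors 6 fell and 4 rose (median -0.17, and -0.104 without shCtrl Tg replicate 2), and the TRAIL receptors moved in opposite directions. TNFRSF10B, encoding the death receptor DR5, a known CHOP target, fell from 207 and 202 CPM to 134 and 133 CPM in Tg (log2 change -0.62 ± 0.048 (SE), adjusted p = 1.5e-08) but did not pass the test in DMSO (0.031 ± 0.049). TNFRSF10D, a decoy receptor without a full death domain, rose from 10.1 and 8.78 CPM to 33.8 and 27.9 CPM (1.71 ± 0.11, adjusted p = 1.3e-09), and by 0.82 ± 0.078 in DMSO. Of 13 cytosolic heat shock proteins 1 fell and 6 rose (median 0.092). HSPA8, a constitutive HSP70, rose from 775 and 758 CPM to 972 and 985 CPM (0.35 ± 0.042), and DNAJB1 fell (-0.39 ± 0.051). HSPA1A also rose (0.47 ± 0.103), but it has a near-identical neighbour, HSPA1B, so its counts are uncertain.

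Of 21 secreted growth factors 10 fell and 4 rose (median -0.15). Besides FGF21, STC2 and GDF15, the activin-family gene INHBE fell, from 3.83 and 4.62 CPM to 0.151 and 0.359 CPM (log2 change -3.99 ± 0.396 (SE), adjusted p = 4.5e-07). The EGF receptor ligands AREG and EREG fell, AREG from 717 and 725 CPM to 359 and 387 CPM (-0.95 ± 0.051) and EREG from 303 and 336 CPM to 159 and 177 CPM (-0.93 ± 0.063), both named after their values were seen. TGFA, another such ligand named after its values were seen, did not pass the test (0.13 ± 0.051) and was called higher without shATF4 Tg replicate 1 (0.18). The change of AREG was more negative than in DMSO (difference -0.86). Of 21 cytokines and chemokines 5 were lower and 6 higher (3 higher without shATF4 Tg replicate 2). The neutrophil chemokine CXCL1 rose from 56.2 and 58.99 CPM to 114 and 121 CPM (1.03 ± 0.077), while the epithelial cytokine TSLP fell, at low level (5.73 and 4.90 CPM in shCtrl and 2.81 and 2.29 CPM in shATF4, -1.06 ± 0.196).

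Of 15 AP-1 and EGR immediate-early genes 7 rose and 2 fell (median 0.12; 0.27 without shATF4 Tg replicate 1, 0.205 without shATF4 Tg replicate 2, 0.18 without shCtrl Tg replicate 1 and 0.061 without shCtrl Tg replicate 2). FOSB rose from 9.51 and 10.5 CPM to 22.5 and 25.3 CPM (1.26 ± 0.15), and the epithelial factor KLF4 fell from 114 and 110.3 CPM to 53.97 and 55.5 CPM (-1.03 ± 0.057). Of 13 MAP kinase phosphatases and Sprouty genes, which restrain ERK signalling, 6 rose and 2 fell (median 0.088), the fallers numbering 1 without shATF4 Tg replicate 1, shATF4 Tg replicate 2 or shCtrl Tg replicate 1; DUSP4 rose from 107 and 106 CPM to 194 and 195 CPM (0.87 ± 0.060). Of 21 interferon-stimulated genes 7 rose and 1 fell (median 0.047), with IFIT2 from 13.1 and 16.7 CPM to 31.4 and 29.8 CPM (1.04 ± 0.101) and OAS3, an RNA sensor, from 94.7 and 85.5 CPM to 51.4 and 56.97 CPM (-0.73 ± 0.072).

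Of 23 epithelial junction and identity genes 13 fell and 3 rose (median -0.201), and 1 rose without shATF4 Tg replicate 2. DSG3, a desmosomal cadherin, was at 498 and 496 CPM in shCtrl and 266 and 257 CPM in shATF4 (log2 change -0.92 ± 0.046 (SE), adjusted p = 3.2e-11), and TP63, the basal epithelial transcription factor, at 145 and 153 CPM in shCtrl and 76.3 and 89.04 CPM in shATF4 (-0.85 ± 0.062). Both fell more in Tg than in DMSO (differences -0.56 and -0.57). The desmosomal genes JUP (-0.14 ± 0.060, adjusted p = 0.11) and DSP (-0.11 ± 0.16, adjusted p = 0.69) did not pass the test. Of 15 keratins 7 fell and 4 rose (median -0.012), and 2 rose without shATF4 Tg replicate 2, shCtrl Tg replicate 1 or shCtrl Tg replicate 2. The stress keratin KRT16 fell from 368 and 372 CPM to 88.99 and 94.7 CPM (-2.01 ± 0.057, adjusted p = 7.3e-15), while the luminal keratin KRT8 rose from 2177 and 2150.5 CPM to 3434 and 3231 CPM (0.62 ± 0.046) and also rose in DMSO (0.67 ± 0.046).

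Of 17 mesenchymal genes 1 fell and 3 rose. The neural cadherin gene CDH2 rose from 5.92 and 6.05 CPM to 11.96 and 13.8 CPM (1.11 ± 0.099), and the gelatinase MMP2 fell at low level (4.32 and 3.56 CPM in shCtrl and 1.51 and 1.75 CPM in shATF4, -1.26 ± 0.23); CDH11 and PRRX1 had no count in either Tg group, and SNAI1 had 1 count in shCtrl. Of 23 collagens and matrix proteins 2 fell and 4 rose; COL5A2 fell from 38.2 and 40.01 CPM to 25.8 and 26.6 CPM (-0.58 ± 0.069) and CCN1, a matricellular protein, rose from 90.1 and 91.9 CPM to 163 and 169 CPM (0.87 ± 0.052). The matrix risers numbered 8 with the replicate block or without the filter on low counts, and 2 without shCtrl Tg replicate 2. The fallers of that list numbered 1 without shATF4 Tg replicate 2 or shCtrl Tg replicate 1, and those of the mesenchymal list 2 without shATF4 Tg replicate 2. No median is given for either list, since members without counts have no defined change. Of the stellate cell markers tested, 11 of 15, 2 fell (LRAT, -1.23 ± 0.094, and LUM, under 1 CPM in each library) and 2 rose (THY1, 1.29 ± 0.11, and NGFR, 0.23 ± 0.070). LUM was not called without shATF4 Tg replicate 1 (-1.95) or shCtrl Tg replicate 1 (-2.17), nor NGFR without shATF4 Tg replicate 1 (0.17), shCtrl Tg replicate 1 (0.24) or shCtrl Tg replicate 2 (0.22). No call was made for the leukocyte markers that could be tested, 2 of 8, and of 5 endothelial markers 1 rose, CDH5, from 0.146 and 0.139 CPM to 1.66 and 0.718 CPM.

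Of 24 genes of cholesterol synthesis and SREBP targets 11 rose and 3 fell (median 0.11), among them INSIG1, which holds back SREBP activation, at 70.6 and 70.4 CPM in shCtrl and 109 and 109 CPM in shATF4 (log2 change 0.63 ± 0.052 (SE), adjusted p = 4e-08); the count of risers was 5 without shATF4 Tg replicate 1 and 7 without shCtrl Tg replicate 2. Of 25 glycolysis and hypoxia genes 10 rose and 3 fell (median 0.11), with the carbonic anhydrase CA9 higher (13.7 and 15.4 CPM in shCtrl and 30.2 and 28.98 CPM in shATF4, 1.02 ± 0.092) and NDRG1 lower (410.0 and 413 CPM in shCtrl and 226 and 214 CPM in shATF4, -0.91 ± 0.047); the risers numbered 5 without shATF4 Tg replicate 2. Of 24 cell cycle and DNA replication genes 6 rose and 4 fell (median 0.062), the largest fall being that of the replication licensing factor CDC6 (-0.47 ± 0.044). Of 19 p53 targets and CDK inhibitors 2 rose and 7 fell (median -0.013); GADD45A, a stress-induced growth arrest gene, fell from 361 and 388 CPM to 259.7 and 277 CPM in Tg (-0.48 ± 0.056) and rose by 0.24 ± 0.058 in DMSO. Leaving out a library, the risers among cell cycle genes numbered 3 without shATF4 Tg replicate 2, and the fallers among p53 targets 3 without shCtrl Tg replicate 2.

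Of 25 cytosolic ribosomal protein genes 3 rose and 0 fell (median 0.043), and of 13 snoRNA host genes 7 rose and 0 fell (median 0.23). Of the ribosomal genes 0 rose with only the compared groups or without shATF4 Tg replicate 1 or shCtrl Tg replicate 1, and 1 fell in the last case. The snoRNA host genes that rose numbered 3 without shATF4 Tg replicate 1 or shCtrl Tg replicate 1, 4 without shATF4 Tg replicate 2 or with DESeq2's Wald test, and 10 without the filter. All 13 mitochondrially encoded protein genes rose (median 0.64), with MT-ND1, a subunit of respiratory complex I, at 139 and 105 CPM in shCtrl and 222 and 246 CPM in shATF4 (log2 change 0.94 ± 0.12 (SE), adjusted p = 1.3e-05). The spread within the shCtrl group was wide here. Without shCtrl Tg replicate 2, 11 of 13 were called and the median was 0.49. In DMSO 1 of 13 was called, and the change of none of the 13 was called different between Tg and DMSO (median difference 0.52, edgeR). The difference for MT-ND1 was called without the filter on low counts (0.54), with the replicate block (0.55), with only the compared groups (0.54) and without shCtrl Tg replicate 1 (0.78). RNA quality was not given, and its part in this result was not tested.

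Over all genes, the largest falls among genes of at least 5 CPM included, beside CHAC1, ADM2, JDP2 and STC2, the pregnancy-associated plasma protein PAPPA2, a protease of insulin-like growth factor binding proteins (8.30 and 6.19 CPM in shCtrl and 0.352 and 0.269 CPM in shATF4, log2 change -4.53 ± 0.302 (SE), adjusted p = 2e-09), and the matrix protein gene ECM2 (8.88 and 9.19 CPM in shCtrl and 0.653 and 0.449 CPM in shATF4, -4.03 ± 0.303). The collagen receptor DDR2 fell from 10.05 and 10.1 CPM to 1.005 and 0.987 CPM (-3.33 ± 0.22), the kinesin KIF21B from 5.82 and 4.90 CPM to 0.553 and 0.807 CPM (-2.95 ± 0.28), and the TNF receptor family member TNFRSF9 from 10.8 and 9.19 CPM to 1.36 and 1.97 CPM (-2.57 ± 0.196). PAPPA2 and KIF21B also fell in DMSO (-4.45 ± 0.31 and -3.09 ± 0.51), and DDR2 fell more in Tg (difference -1.61 ± 0.37), a difference not called without shATF4 DMSO replicate 1 (-1.27) or shATF4 Tg replicate 2 (-1.59). PAPPA2, ECM2, DDR2, KIF21B and TNFRSF9 are on none of the lists used here.

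The largest rises were smaller than the largest falls. The protease ADAMTS1 rose from 1.16 and 0.924 CPM to 6.13 and 6.10 CPM (log2 change 2.55 ± 0.19 (SE), adjusted p = 7.4e-09), and CEMIP, a hyaluronan-binding protein, from 21.1 and 21.99 CPM to 77.2 and 66.2 CPM (1.73 ± 0.094). DKK1, a secreted WNT antagonist, rose from 60.8 and 61.1 CPM to 189 and 191 CPM (1.64 ± 0.050), and the adhesion receptor CXADR from 1.36 and 1.25 CPM to 6.33 and 4.93 CPM (2.103 ± 0.22). The changes of ADAMTS1, CEMIP and DKK1 were more positive in Tg than in DMSO, by 2.13, 1.85 and 1.11, and CXADR rose in DMSO by 1.77 ± 0.21. The rule that chose these 4 genes required both shATF4 libraries to lie above both shCtrl libraries.

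In DMSO 2295 genes (12.8%) differed between shATF4 and shCtrl, of which 1090 (6.08%) were higher and 1205 (6.72%) lower. This balance depended on the setting. It was 1317 higher and 1069 lower with DESeq2 size factors, and 933 and 730 with DESeq2's Wald test. More were also higher without the filter (1376 and 1063) and with only the compared groups (1489 and 1399), but not with the replicate block (1314 and 1375). Of the genes lower in Tg, 778 were also called lower in DMSO, which is 36.3% of those lower in Tg and 64.6% of those lower in DMSO, and 24 were called higher there. For genes higher in Tg the shared number was 680, or 30.7% and 62.4% of each set, with 34 in the opposite direction. The change itself differed between Tg and DMSO for 818 genes (4.56%), 430 (2.4%) more negative and 388 (2.16%) more positive in Tg. With DESeq2's Wald test 424 were more negative and 229 more positive. Of 22 ISR targets 11 had a more negative change in Tg and 0 a more positive one, of 20 cytosolic synthetases 9 and 0, and of 22 ER chaperones 2 and 0. Among genes with a window, the amino acid response element was present in 14 of 72 (19.4%) that fell at least 2-fold in Tg and whose change was called different in DMSO, and in 20 of 135 (14.8%) of the other genes that fell at least 2-fold.

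Amino acid deprivation is the other ISR trigger applied to these cells, and there 3025 genes (16.9%) differed between the hairpins, 1753 (9.77%) higher and 1272 (7.09%) lower. The shATF4 group there is 1 library, whose spread was taken from the other groups, so an effect of the knockdown under AA_Dep and a property of that library cannot be told apart. Of genes lower in Tg, 779 were also lower under AA_Dep (36.4% of those in Tg and 61.2% of those under AA_Dep), and 447 were lower in Tg, DMSO and AA_Dep. The change differed between Tg and AA_Dep for 1276 genes (7.11%), 782 (4.36%) more negative and 494 (2.75%) more positive in Tg. Of the ISR targets, 18 of 22 fell under AA_Dep as well (median -2.895). The log2 change of DDIT4 was -3.08 under AA_Dep and -1.49 in Tg, and that of SLC38A2 was -0.95 under AA_Dep and -1.76 in Tg. Of 21 interferon-stimulated genes 20 were called higher in that library than in shCtrl under AA_Dep (median 1.21), and 7 in Tg.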

How the data were processed

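RNA-seq counts per gene were deposited by the authors, one table per sample, as whole numbers that were not normalised. Per the labels' protocols, RNA came from a Qiagen RNeasy kit and the libraries from a SMARTer mRNA-Seq kit; whether they keep strand is not given in the sources used here, so antisense and overlapping genes cannot be told apart. The submitters' processing notes name cutadapt, Bowtie2, STAR, HOMER, featureCounts and DESeq and the builds hg19 and hg38, with neither roles nor versions. The tables list 58735 genes, 58207 with a symbol, and 110 lines without a gene, which hold 0 counts. HMLE libraries total 15956909 to 23243132 counts. The floor used for genes at 0 covers counting error only, whereas the SEs also include the spread between libraries.

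Counts were fitted in edgeR 4.0.16 (R 4.3.3) with TMM scaling, filterByExpr by group and the quasi-likelihood test, 15 libraries of 8 groups in one fit, without a replicate block; 17940 genes passed the filter. Values are log2 changes with SE (the change divided by the square root of its F) and p-values adjusted over all genes tested, with 0.05 as threshold. The biological coefficient of variation was 5.24%, TMM factors ran from 0.961 to 1.08, and log2 CPM of the 2 libraries of a Tg group correlated at 0.992 across genes. Replicate Tg libraries differed by more than sampling noise (chi-square per degree of freedom 4.22 in shATF4 and 6.66 in shCtrl). RefSeq promoter windows were matched by symbol to 12148 genes tested.

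Named genes are ATF4, up to 4 called members of each list with the largest change and up to 2 uncalled members with the highest level. The rule also takes the 15 largest called rises and falls at 5 CPM or more, only where the libraries of the 2 hairpins did not overlap. It adds the 8 largest called differences from DMSO each way, only where the library-by-library changes in Tg and in DMSO did not overlap. Other genes, such as SLC7A2, CEBPG, CRELD2 and SDF2L1, were named after their values were seen, some because their promoter is shown or counted. Some genes that the rule gives are not reported here. The comparison and its 40 gene lists were chosen with earlier results of these data known. Alternatives were DESeq2 1.42.0 size factors, DESeq2's Wald test, no filter, a replicate block, only the compared groups, a 2-fold threshold and leaving out each library. Tables were joined and figures drawn with pandas 2.3.3 and matplotlib 3.10.9. The stellate line and the assays other than RNA-seq were not used here.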

Additional observations from a re-analysis of the deposited data

Results flagged for a closer look

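The knockdown's log2 change differed between Tg and DMSO for 818 genes and between Tg and AA_Dep for 1276 genes, by edgeR's test of the difference itself at an adjusted p under 0.05. Of 146 genes named in the text, 70 are among the first, 58 with a more negative and 12 with a more positive change in Tg. Many of the 146 were chosen by the size of their change or of this difference, so these counts describe the selection. Over all 17940 genes tested, 430 (2.4%) had a more negative and 388 (2.16%) a more positive change in Tg. The values that follow are the change in Tg minus that in DMSO.

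For ATF4 and other transcription factors or ER sensors, the difference was -0.87 for ATF4, -1.01 for CEBPB, -0.36 for CEBPG, -1.04 for DDIT3, -1.13 for NFIL3, -0.67 for NFE2L2, -0.33 for ATF6, -0.63 for EIF2AK3 and -0.85 for ERN1. For ISR targets and other stress genes, the difference was -2.12 for SESN2, -1.98 for TRIB3, -1.71 for GDF15, -1.66 for STC2, -1.21 for DDIT4, -0.71 for CTH, -0.53 for PPP1R15A, -0.71 for HERPUD1, -0.95 for MAP1LC3B, -0.65 for TNFRSF10B and -0.73 for GADD45A. For enzymes of amino acid, one-carbon and redox metabolism, the difference was -0.29 for PHGDH, -0.68 for PSAT1, -0.87 for PSPH, -0.96 for MTHFD2, -0.404 for SHMT2, -0.69 for GPT2, -0.36 for GCLC and -0.52 for TXNRD1. For tRNA synthetases and translation factors, the difference was -0.27 for CARS1, -0.66 for GARS1, -0.27 for IARS1, -0.24 for MARS1, -0.35 for NARS1, -0.38 for SARS1, -0.397 for TARS1, -0.31 for EIF2S2 and -0.34 for EIF4EBP2. For amino acid carriers, the difference was -1.85 for SLC38A2, -0.68 for SLC7A11, -0.51 for SLC7A1, -0.49 for SLC1A5 and -0.25 for SLC3A2. All of these were more negative in Tg.

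Among the other named genes the difference was -0.86 for AREG, -0.46 for CDC6, -1.61 for DDR2, -0.56 for DSG3, -0.55 for EREG, -1.95 for FLNC, -0.304 for HSPA5, -0.39 for HSPA9, -0.796 for KLF4, -0.85 for KRT16, -0.88 for LRAT, -2.03 for LURAP1L, -0.42 for NDRG1, -2.08 for SPRR2D, -0.29 for TGFA and -0.57 for TP63. More positive changes in Tg were 2.13 for ADAMTS1, 1.11 for ADAMTS15, 0.71 for CCN1, 1.85 for CEMIP, 1.11 for DKK1, 0.64 for DUSP4, 1.59 for FOS, 0.75 for HSPA1A, 0.33 for HSPA8, 0.398 for INSIG1, 1.47 for S1PR5 and 0.89 for TNFRSF10D. Leaving out 1 library at a time, differences that were no longer called included those of ATF6 without shATF4 DMSO replicate 2 (-0.33), shATF4 Tg replicate 2 (-0.31), shCtrl DMSO replicate 2 (-0.29) or shCtrl Tg replicate 2 (-0.29), of FOS without shATF4 DMSO replicate 1 (1.43) or shCtrl DMSO replicate 2 (1.52), of HSPA5 without shATF4 Tg replicate 2 (-0.29) or shCtrl DMSO replicate 1 (-0.30), of EIF4EBP2 without shATF4 Tg replicate 2 (-0.30), of SPRR2D without shATF4 DMSO replicate 2 (-1.902) and of ADAMTS15 without shCtrl DMSO replicate 1 (1.03). Differences of the synthetases CARS1, MARS1 and IARS1, of SLC3A2 and of TGFA were close to the threshold and were lost without several of the libraries.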

How the results depend on the processing

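Counts of changed genes are given in the order Tg, DMSO, AA_Dep, difference between Tg and DMSO, and difference between Tg and AA_Dep. They were 4353, 2295, 3025, 818 and 1276 as reported, and requiring a log2 change of at least 1 as well left 518, 222, 527, 80 and 202. Under the other settings run with all libraries (DESeq2 size factors, no filter on low counts, DESeq2's Wald test, a fit of only the compared groups, and a block for the replicate number) they lay within 1.5 times the reported counts, with Tg from 3224 (Wald) to 4715 (block). Changes more positive in Tg made up 47.4% of the differences from DMSO as reported and 35.1% with the Wald test (229 higher, 424 lower). Of the differences from AA_Dep they made up 38.7% as reported and 50.9% without the filter (737 higher, 711 lower). Leaving out 1 library at a time gave 2963 to 3792 genes in Tg, 1101 to 1470 in DMSO, 2063 to 2255 under AA_Dep, 499 to 1061 for the difference from DMSO and 832 to 1357 for that from AA_Dep. The DMSO count was below the reported one by over 1.5 times without shATF4 replicate 1 (1470), shATF4 replicate 2 (1101), shCtrl replicate 1 (1171) or shCtrl replicate 2 (1161). The difference from DMSO was so without shATF4 DMSO replicate 2 (499), shCtrl DMSO replicate 2 (515) or shCtrl Tg replicate 2 (544), and that from AA_Dep without shCtrl AA_Dep replicate 1 (832). With a library left out, the sample left in that group was taken to vary as the others do, and the single shATF4 AA_Dep library could not be left out. With the replicate block the counts were 4715, 2689, 3216, 1120 and 1514. Same-numbered deviations correlated at 0.0297 in Tg and 0.0218 in DMSO over genes. With 2 pairs each, this cannot show whether the numbers pair the libraries. Of 278 genes checked for their change in Tg (those the naming rule gives and those in the text), 234 kept their call under every setting run for them and 0 changed sign with a call. For the difference from DMSO, 121 of 146 did, and 0 changed sign with a call. Sign changes without a call were not counted for either. Counts per list under these settings, and the differences gene by gene, were chosen after seeing the data. The balance of higher and lower genes under AA_Dep also turned without the filter on low counts and in the fit of only the compared groups. The causes of these shifts were not tested. With 2 libraries a group, genes of a few CPM have wide errors.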

Other observations

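Among genes on none of the lists, several were among the largest differences between the knockdown's change in Tg and that in DMSO. SPRR2D, a precursor of the cornified envelope of squamous epithelium, was at 0.400 and 0.541 CPM in shCtrl and 0.507 and 0.643 CPM in shATF4 in DMSO and at 9.27 and 9.38 CPM in shCtrl and 2.51 and 2.87 CPM in shATF4 in Tg (difference of the changes -2.08 ± 0.42, adjusted p = 0.0054). LURAP1L, whose function is less well described, was at 7.15 and 6.98 CPM in shCtrl and 7.69 and 7.95 CPM in shATF4 in DMSO and at 33.97 and 40.6 CPM in shCtrl and 9.10 and 11.1 CPM in shATF4 in Tg (difference -2.03 ± 0.17, adjusted p = 5.4e-07). FLNC, an actin crosslinking filamin, was at 1.91 and 1.48 CPM in shCtrl and 2.58 and 2.02 CPM in shATF4 in DMSO and at 14.2 and 11.9 CPM in shCtrl and 5.33 and 3.86 CPM in shATF4 in Tg (difference -1.95 ± 0.34, adjusted p = 0.0017). In these 3 genes the libraries of both hairpins were low in DMSO, and in Tg the shCtrl libraries were above the shATF4 libraries.

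In the other direction, S1PR5, a receptor for the lipid sphingosine 1-phosphate, was at 15.4 and 15.3 CPM in shCtrl and 11.8 and 10.3 CPM in shATF4 in DMSO and at 2.14 and 1.89 CPM in shCtrl and 4.02 and 3.99 CPM in shATF4 in Tg (difference 1.47 ± 0.27, adjusted p = 0.0022). ADAMTS15, a matrix protease related to ADAMTS1, was at 3.91 and 3.49 CPM in shCtrl and 2.95 and 2.76 CPM in shATF4 in DMSO and at 4.80 and 3.83 CPM in shCtrl and 6.68 and 7.67 CPM in shATF4 in Tg (difference 1.11 ± 0.24, adjusted p = 0.0074). In both genes the shATF4 libraries were lower in DMSO and higher in Tg. These genes, like those of the paragraph above, were chosen by a rule that required the changes in Tg and in DMSO not to overlap.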
